A study of Homo sapiens with 12 samples.

Results

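The genes described here are the cytochrome P450 (CYP), UDP-glucuronosyltransferase (UGT), cytosolic sulfotransferase (SULT) and glutathione S-transferase (GST) genes of HepG2 cells, an established human liver cancer line. They were chosen by symbol alone: CYP families 1 to 4 and the steroid, bile acid, retinoid and vitamin D families, and every UGT, SULT and GST gene with a row in the count table. The rule took 54 of 16389 genes. They were 13 genes of CYP families 1 to 3, 6 of CYP4, 11 of other CYP families, 5 UGT, 8 SULT and 11 GST genes. All 5 UGT genes belong to UGT2. No UGT1 gene had a row, which does not show that UGT1 transcripts were absent, so the UGT values cover UGT2 only.

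Poly(A)-selected RNA was sequenced from 4 groups with 3 libraries each. LG cells were kept for 48 h in DMEM with 5.5 mM glucose and HG cells in the same medium brought to 20 mM. LGV and HGV cells received 1 mM valproic acid (VPA), an antiepileptic drug that inhibits histone deacetylases, for 12 h after the 48 h in LG or HG medium. All groups shared 1 cell line and the same serum and antibiotics. In bulk RNA of this kind, fewer cells expressing a gene and less RNA per cell cannot be told apart. It is not stated whether untreated cells were kept for the further 12 h, nor whether the libraries came from separate cultures, so p-values measure the spread between these libraries, which may be technical.

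P450 enzymes oxidise drugs, steroids, fatty acids and sterols in the first phase of liver metabolism, with electrons supplied by a reductase. UGT, SULT and GST enzymes then attach glucuronic acid, sulfate or glutathione, which makes the products easier to excrete. Transcription of these genes in the liver is governed by ligand-activated receptors such as AHR, PXR (NR1I2), CAR (NR1I3) and FXR (NR1H4), and by liver factors such as HNF4A. VPA is itself cleared in part by glucuronidation.

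Total counts ran from 29798442 to 45572694 per library, so that 3 reads, taken as the detection floor, equalled 0.0713 to 0.112 CPM (counts scaled to library size with TMM factors). That floor covers counting error only. All 10 hepatocyte markers checked had a row, among them ALB at 18946 to 29437 CPM and HNF4A at 228 to 458 CPM. Summed, they lay between 52075 and 58768 CPM in LG, 53058 and 60933 in HG, 40082 and 41009 in LGV, and 47022 and 61653 in HGV. Of 13 markers of other cells, 6 had a row and 7 are not analysed here. Those 6 summed to between 241 and 294 CPM in LG, 372 and 400 in HG, 236 and 259 in LGV, and 304 and 363 in HGV, mostly from SOX9 and ACTA2, and their part in the results was not tested.

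The sequences given are the promoters of CYP1A1, called in every comparison of 2 groups, and of 2 close pairs, shown to set likeness in sequence beside likeness in response. Each is the 250 bases before the RefSeq gene start (assembly GRCh38.p14), read 5′ to 3′ on the strand of the gene. In CYP1A1, the classic target of the aryl hydrocarbon receptor AHR, capitals mark GCGTG, the core letters of its response element. In CYP3A4 and CYP3A7, the adult and fetal liver forms, and in UGT2B10 and UGT2B11, capitals mark AGGTCA, the nuclear receptor half-site.
CYP1A1 (chr15:74725529-74725778, minus strand): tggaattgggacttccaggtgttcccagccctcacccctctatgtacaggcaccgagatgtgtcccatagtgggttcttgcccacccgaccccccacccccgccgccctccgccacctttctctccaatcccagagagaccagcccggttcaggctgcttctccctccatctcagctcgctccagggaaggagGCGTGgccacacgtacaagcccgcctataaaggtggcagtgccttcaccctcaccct
CYP3A4 (chr7:99784185-99784434, minus strand): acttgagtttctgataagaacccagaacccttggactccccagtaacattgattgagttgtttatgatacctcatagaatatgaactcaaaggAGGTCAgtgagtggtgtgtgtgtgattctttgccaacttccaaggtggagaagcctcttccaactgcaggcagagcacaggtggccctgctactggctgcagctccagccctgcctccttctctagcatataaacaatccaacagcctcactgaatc
CYP3A7 (chr7:99735197-99735446, minus strand): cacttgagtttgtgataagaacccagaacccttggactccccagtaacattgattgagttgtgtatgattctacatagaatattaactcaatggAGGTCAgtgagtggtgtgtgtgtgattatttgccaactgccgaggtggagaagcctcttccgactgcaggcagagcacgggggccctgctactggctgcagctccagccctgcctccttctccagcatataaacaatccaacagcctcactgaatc
UGT2B10 (chr4:68815744-68815993, plus strand): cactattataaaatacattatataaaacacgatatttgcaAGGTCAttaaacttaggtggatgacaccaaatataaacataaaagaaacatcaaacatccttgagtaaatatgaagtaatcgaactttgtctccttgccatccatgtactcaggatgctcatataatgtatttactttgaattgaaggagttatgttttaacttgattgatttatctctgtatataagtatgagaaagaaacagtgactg
UGT2B11 (chr4:69214749-69214998, minus strand): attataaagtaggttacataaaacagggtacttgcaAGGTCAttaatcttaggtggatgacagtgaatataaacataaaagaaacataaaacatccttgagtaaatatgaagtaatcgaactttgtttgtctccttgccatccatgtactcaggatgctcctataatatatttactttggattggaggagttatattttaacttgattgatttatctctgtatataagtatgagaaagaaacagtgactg

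Close pairs were nearly alike in the window. Of aligned positions, 94% were identical in CYP3A4 and CYP3A7, 90.2% in UGT2B10 and UGT2B11, and 97.2% in GSTA1 and GSTA2. The share was 46.6% in CYP4F2 and CYP4F3. Windows were matched for 44 of the 54 genes. AGGTCA, searched on both strands, was present in 31.8% of them and in 12.1% of all 35116 windows. TGACNNNGC (antioxidant response element) was present in 18.2% and 10.9%, GCGTG in 20.5% and 32.2%, and CACGTG (E-box) in 2.27% and 6.34%. AGGTCA and TGACNNNGC can overlap, since the other strand of AGGTCA begins with TGAC. These are matches of letters and not binding sites.

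Many of these genes share sequence with other gene models. With 50-base windows along each transcript, 15 genes shared over 10% of windows with another gene and 22 shared none. The share was 78.4% for SULT1A1, 71.8% for CYP3A7, 59.3% for SULT1A2, 48.3% for CYP21A2 (with the pseudogene CYP21A1P), 46.1% for GSTM2, 41.2% for CYP2D6, 40.5% for UGT2B11, 26% for GSTA1, 23.7% for SULT1E1, 22% for GSTA2 and UGT2B10, 18.9% for GSTM4, 17.9% for CYP4F2, 10.6% for SULT1B1 and 10.1% for CYP2B6. Values of these genes may be uncertain, because the counting could drop or misplace shared reads. The share does not measure the extent of this, since it also holds models that overlap the gene itself. Such models share the most windows with CYP3A7 (the readthrough CYP3A7-CYP3A51P) and with SULT1A1, SULT1A2 and SULT1E1 (unnamed models). The strand setting of the counting is not stated, so reads of CYP21A2 and TNXB, CYP8B1 and ACKR2, CYP17A1 and WBP1L, and CYP2E1 and SYCE1, whose exons overlap on opposite strands, may not have been separated. The exons of CYP19A1, CYP20A1, CYP2U1, GSTM3, GSTT1, SULT2B1 and UGT2B11 also overlap a gene model on the opposite strand. On the same strand, CYP27B1 overlaps METTL1, CYP3A7 the readthrough CYP3A7-CYP3A51P, GSTM2 the model of GSTM1, and CYP4V2, SULT1A1, SULT1A2 and SULT1E1 unnamed models.

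In LG the most abundant transcripts per length were those of conjugating enzymes and of one bile acid P450. On the scale of CPM per kb of transcript, GSTO1, an omega-class transferase, stood at 145 ± 20.9 (SD, n = 3), CYP27A1, a mitochondrial sterol hydroxylase of bile acid synthesis, at 115 ± 7.34, and SULT2A1, which sulfates bile acids and dehydroepiandrosterone, at 98.5 ± 1.14. The difference between GSTO1 and CYP27A1 was larger than the SD of either. GSTT1 and GSTK1 followed at 60.4 ± 0.609 and 52.1 ± 4.79, and SULT1A1 at 32.7 ± 4.95. Of the UGT genes, UGT2A3 (27.5 ± 2.38), UGT2B4 (24.01 ± 8.49) and UGT2B10 (23.3 ± 5.58) lay within their spread of each other. The leading genes of the other P450 classes were CYP2W1, a form known from tumours and fetal gut, at 23.7 ± 5.54, CYP1A1 at 9.24 ± 2.06, CYP4F12 at 16.5 ± 2.73, CYP4F3 at 6.77 ± 0.927 and CYP20A1, an orphan P450, at 2.57 ± 0.232. The main drug-metabolising P450 of adult liver, CYP3A4, had a level per length of 0.259 ± 0.0379, against 6.38 ± 0.240 for the fetal form CYP3A7. CYP2E1, the ethanol-oxidising P450, stood at 0.130 ± 0.00698, CYP2B6 at 0.0311 ± 0.0288, and CYP4F22 had 0 reads in all LG and HG libraries.

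**Figure D1:**
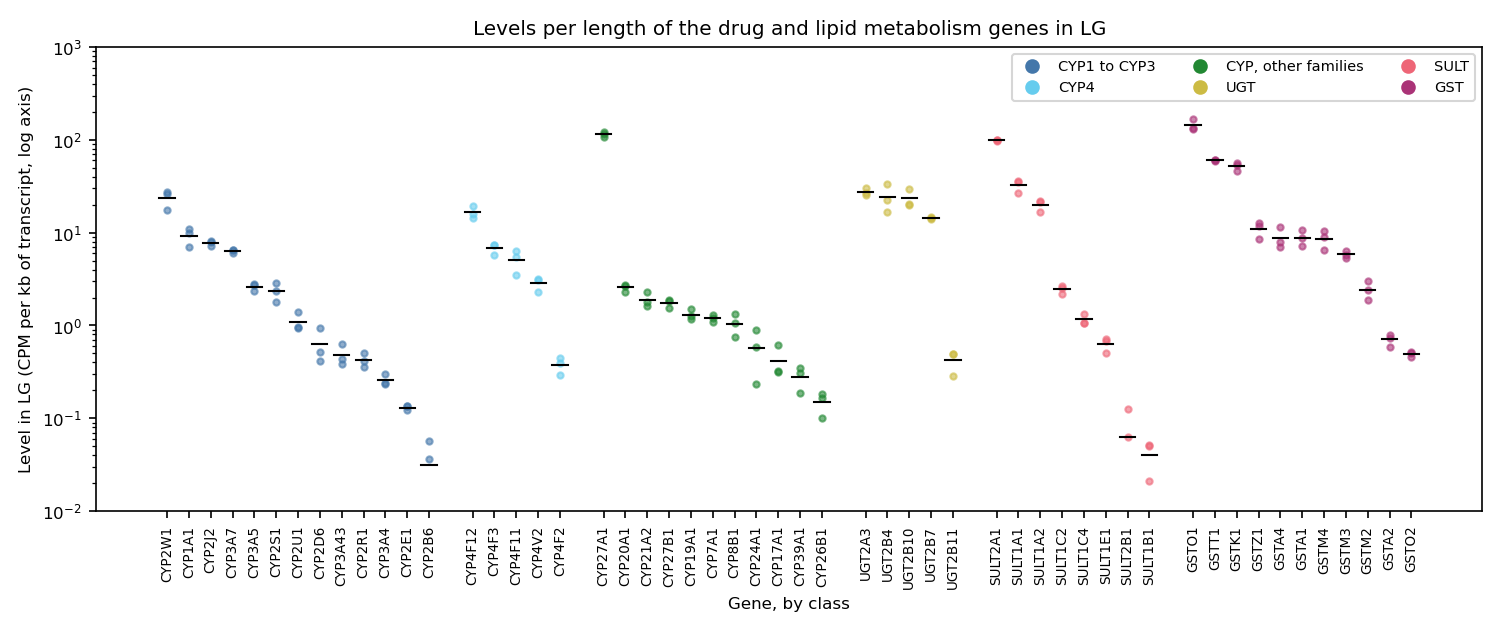
Level in LG (CPM per kb of transcript, log axis) of the genes by class, with 1 point per library and a line at the mean. CYP4F22 (0 reads) and single libraries at 0 are not drawn. GSTO1, CYP27A1 and SULT2A1 lead at 98.5 to 145, and CYP3A4, CYP2E1 and CYP2B6 lie below 0.3.

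Summed over the 54 genes, transcripts stood at 1299 ± 51.2 CPM in LG (SD, n = 3), 1330 ± 41.6 in HG, 932 ± 32.4 in LGV and 959 ± 65.1 in HGV. No VPA library reached the lowest untreated library, 1241 CPM against 1008. High glucose left the sum within the spread of LG. The sum weighs abundant genes most, such as CYP27A1, GSTO1 and SULT2A1.

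High glucose raised more of these genes than it lowered. In HG against LG, 51 genes were tested (CYP2B6, CYP4F22 and SULT2B1 had too few reads), of which 16 were higher and 7 lower at an FDR of 0.05 or less (edgeR quasi-likelihood F test). Over all 15452 genes tested, 12.0% were called higher and 12.7% lower. The median log2 fold change was 0.16 over these genes and 0.01 over all. All of the 5 GST genes called (GSTA4, GSTM2, GSTA2, GSTA1, GSTM4) were higher. In HGV against LGV, 17 of 53 genes were higher and 7 lower, while 21.2% of all genes were higher and 19.5% lower, and the medians were 0.36 and 0.01. Scaled by library size alone, the median of all genes moved to 0.11 in HG against LG, with 2172 genes higher and 1297 lower in place of 1854 and 1959.

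VPA lowered more of them than it raised, in either medium. In HGV against HG, 14 of 54 genes were higher and 21 lower, with 25.8% of all genes higher and 20.2% lower, and the median was -0.09 against 0.02 over all. In LGV against LG, 11 of 53 were higher and 23 lower, with 21.7% and 19.9% of all genes, and the median was -0.27 against -0.01. Scaled by library size alone, the medians of all genes moved to 0.15 and 0.16, with 5182 higher and 2424 lower in HGV against HG and 4500 and 1956 in LGV against LG, in place of 4184 and 3272, and 3461 and 3177. The 2 VPA comparisons share no library: 50 of 53 genes had the same sign, against 81.9% of all genes, and Pearson's r of the log2 fold changes was 0.958 across these 53 genes, which are not independent replicates. HG against LG shares the HG libraries with HGV against HG and the LG libraries with LGV against LG. By class, VPA raised 5 and lowered 3 of the 13 genes of CYP families 1 to 3 in either medium, 2 and 6 of the 11 of other CYP families, and 2 and 3 of the 8 SULT genes. Of CYP4 it raised 2 and lowered 2 in HG medium, and 0 and 3 in LG medium. It lowered 5 and 4 of the 11 GST genes and raised 2, and it lowered 2 and 4 of the 5 UGT genes, in HG and LG medium. Across classes, 11 of the 53 genes were called higher with VPA in both media, 20 lower in both and none in opposite directions. The higher counts include genes that reached the mean count of 10 only through their VPA libraries, such as CYP2B6 and SULT2B1. In HGV against HG they also include CYP4F22. Such genes could be called higher but not lower. Of all 15743 genes tested in both media, 17.5% were called higher in both, 14.8% lower in both and 0.0889% in opposite directions. 12 genes were called in none of the 4 comparisons: CYP17A1, CYP24A1, CYP2D6, CYP2J2, CYP2R1, CYP3A4, CYP3A5, CYP4V2, GSTO2, GSTT1, SULT1B1 and SULT1C2.

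**Figure D2:**
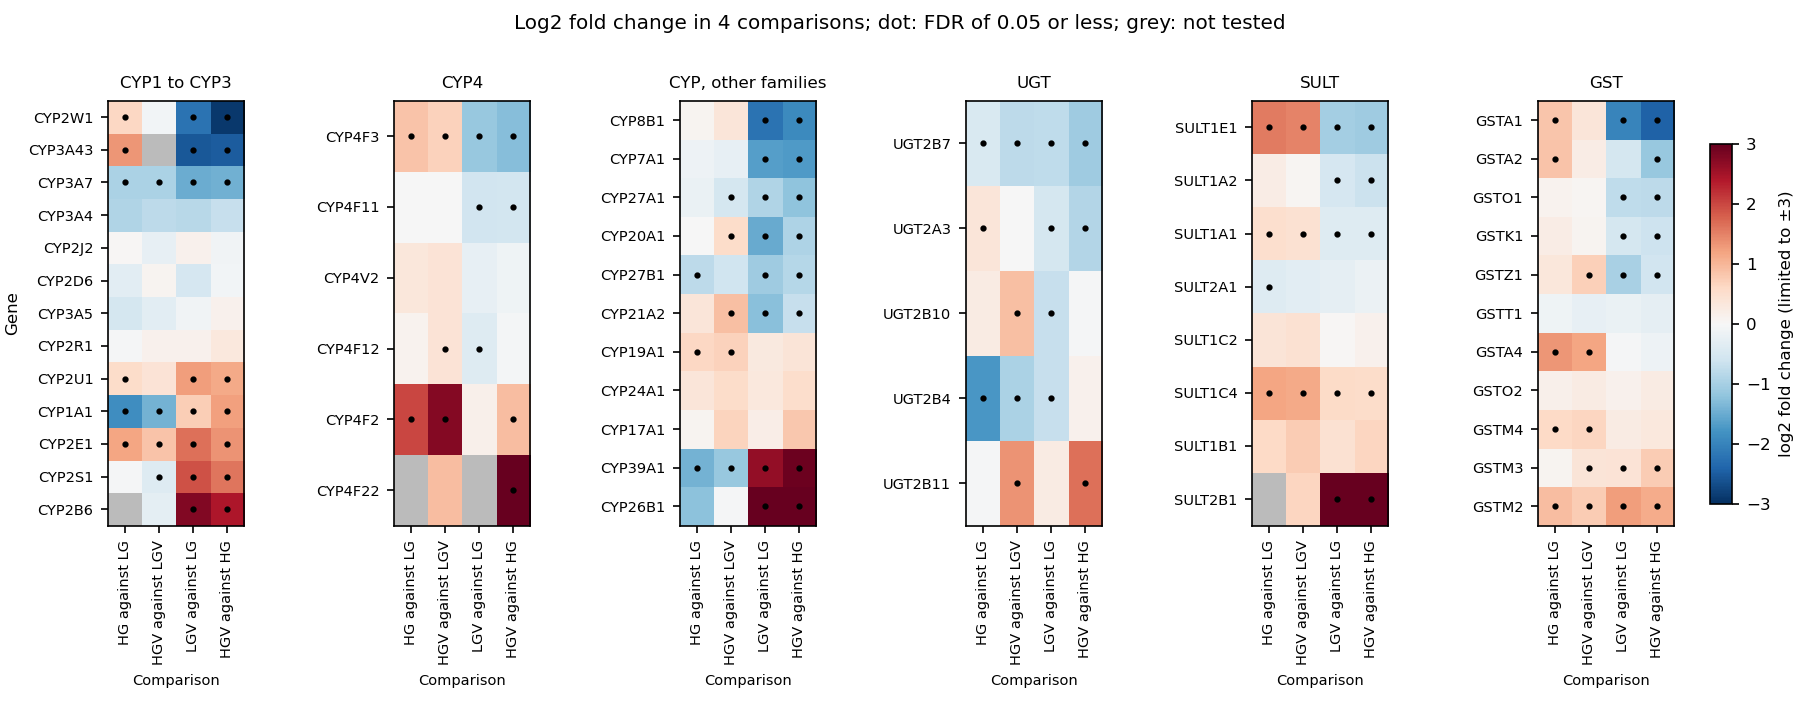
Log2 fold change (colour, limited to ±3) of each gene in the 4 comparisons, by class, with a dot at an FDR of 0.05 or less and grey where a gene was not tested. With VPA, 11 genes were called higher and 23 lower in LGV against LG, and 14 and 21 in HGV against HG. With high glucose, 16 were called higher and 7 lower in HG against LG, and 17 and 7 in HGV against LGV. The shares over all genes are given in the text.

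CYP1A1 (chr15:75011883-75017877 on GRCh37, minus strand), which oxidises polycyclic aromatic hydrocarbons, was lower in high glucose and higher with VPA. It stood at 25.8, 28.3 and 18.0 CPM in the LG libraries, 6.72, 6.10 and 6.61 in HG, 48.3, 40.5 and 31.1 in LGV, and 13.3, 15.4 and 16.6 in HGV. No group overlapped the one it was compared with. The log2 fold change was -1.87 ± 0.18 (SE) in HG against LG (FDR 1.08e-06), -1.42 ± 0.15 in HGV against LGV, 1.22 ± 0.14 in HGV against HG and 0.75 ± 0.18 in LGV against LG. These calls held without any 1 library.

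CYP2W1 (chr7:1022817-1029276, plus strand) was higher in HG and fell most with VPA among the abundant P450s. Its CPM was 64.3, 40.4 and 60.6 in LG, 82.5, 87.6 and 79.5 in HG, 12.3, 11.04 and 11.8 in LGV and 11.6, 10.4 and 11.5 in HGV. The VPA groups overlapped each other and lay far below both untreated groups. The log2 fold change was 0.62 ± 0.15 in HG against LG (FDR 0.00599), -2.90 ± 0.11 in HGV against HG (FDR 6.83e-09) and -2.22 ± 0.17 in LGV against LG. HGV against LGV gave -0.09 ± 0.14 (FDR 0.648).

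CYP2S1, a P450 of tissues outside the liver, and CYP2U1, a fatty acid hydroxylase, rose with VPA. CYP2S1 had 7.55, 4.62 and 6.13 CPM in LG, 5.61, 6.40 and 5.35 in HG, 23.0, 22.7 and 22.4 in LGV and 18.8, 17.7 and 16.3 in HGV, and no VPA library fell within the untreated range. Its log2 fold change was 1.60 ± 0.14 in HGV against HG and 1.92 ± 0.18 in LGV against LG. That of CYP2U1 was 1.14 ± 0.14 and 1.26 ± 0.23. The latter was also called higher in HG than in LG, at 0.56 ± 0.20 (FDR 0.0482), and lost that call without HG replicate 1, 2 or 3 or LG replicate 1 or 2 (highest FDR 0.163).

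Of the CYP3A genes, the family with the broadest range of drug substrates, CYP3A7 fell in all 4 comparisons and CYP3A43 was higher in HG and lower with VPA. CYP3A7 had 13.6, 13.5 and 12.7 CPM in LG, 7.80, 5.68 and 6.72 in HG, 5.31, 4.55 and 4.30 in LGV and 2.51, 2.28 and 2.59 in HGV, so that every group stood apart from the one compared. Its log2 fold change was -0.96 ± 0.17 in HG against LG, -1.45 ± 0.18 in HGV against HG, -1.48 ± 0.17 in LGV against LG and -0.96 ± 0.20 in HGV against LGV. CYP3A4, which shares most of its promoter letters with CYP3A7, gave -0.90 ± 0.37 in HG against LG (FDR 0.077) and -0.68 ± 0.63 in HGV against HG (FDR 0.405). It gave -0.82 ± 0.36 in LGV against LG (FDR 0.0807) and -0.78 ± 0.58 in HGV against LGV (FDR 0.295). All 4 values had the sign of those of CYP3A7, none was called, and CYP3A4 had only 1 to 33 reads per library. CYP3A43, the least abundant CYP3A enzyme in adult liver, had 0.748, 0.649 and 1.07 CPM in LG and 2.95, 1.56 and 1.71 in HG. It was lower with VPA at 0.270, 0.0650 and 0.0801 in LGV and 0.429, 0.262 and 0.412 in HGV, with log2 fold changes of 1.33 ± 0.31, -2.54 ± 0.49 and -2.50 ± 0.34 in HG against LG, LGV against LG and HGV against HG. Without LGV replicate 1 the value in LGV against LG was -3.42. CYP3A5 was not called, at -0.54 ± 0.20 in HG against LG (FDR 0.0619).

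CYP2E1 and CYP2B6 lay under 1.4 CPM in every library and are named after their values were seen. CYP2E1 had 0.218 ± 0.0117 CPM in LG, 0.492 ± 0.136 in HG, 0.683 ± 0.269 in LGV and 1.25 ± 0.0796 in HGV, and was called higher in all 4 comparisons, by 1.18 ± 0.40, 1.35 ± 0.29 in HGV against HG, 1.65 ± 0.42 in LGV against LG and 0.84 ± 0.33 in HGV against LGV. Both glucose calls depended on single libraries. That in HG against LG was lost without HG replicate 1 or 2 or LG replicate 1, 2 or 3 (highest FDR 0.132), and that in HGV against LGV without HGV replicate 1, 2 or 3 or LGV replicate 2 or 3 (highest FDR 0.208). CYP2B6, which hydroxylates bupropion, rose by 2.42 ± 0.49 in HGV against HG and 2.78 ± 0.60 in LGV against LG, from 0 to 0.175 CPM in untreated libraries to 0.452 to 0.801 with VPA. The value in LGV against LG ran from 2.16 without LG replicate 3 to 3.74 without LG replicate 2.

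**Figure D3:**
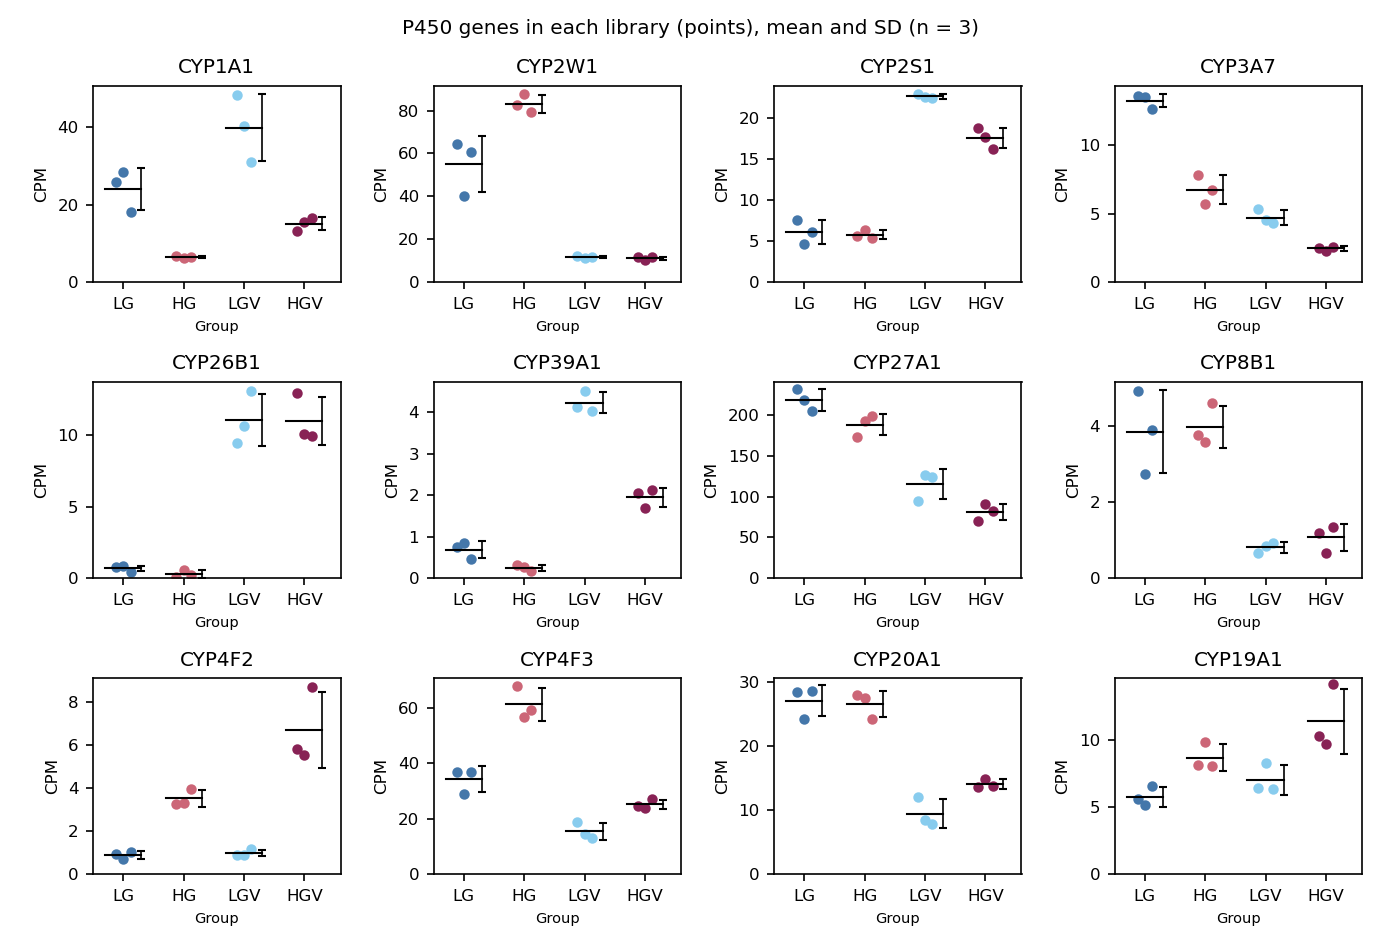
CPM of 12 P450 genes in each library (points), with mean (line) and SD (bar, n = 3), each axis starting at 0. CYP26B1 reaches 9.48 to 13.1 CPM with VPA in either medium, and CYP4F2 stands at 5.52 to 8.70 CPM in HGV only.

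CYP4 enzymes hydroxylate the ends of fatty acids and eicosanoids. CYP4F2 (chr19:15988833-16008887, minus strand), which also breaks down vitamin K, had 0.935, 0.699 and 1.05 CPM in LG, 3.27, 3.32 and 3.95 in HG, 0.870, 0.909 and 1.15 in LGV and 5.80, 5.52 and 8.70 in HGV. The LG and LGV libraries overlapped and the HG and HGV libraries did not. Its log2 fold change was 2.00 ± 0.26 in HG against LG (FDR 2.67e-05), 2.74 ± 0.25 in HGV against LGV, 0.92 ± 0.20 in HGV against HG and 0.14 ± 0.30 in LGV against LG (FDR 0.738). The difference between the last pair gave a log2 interaction of 0.79 ± 0.35 with an FDR of 0.397, so it was not called. CYP4F3, which inactivates leukotrienes, had 36.9, 28.8 and 36.9 CPM in LG, 68.0, 56.6 and 59.1 in HG, 18.7, 14.5 and 12.9 in LGV and 24.7, 23.8 and 26.9 in HGV. It rose by 0.86 ± 0.14 in HG against LG and 0.69 ± 0.15 in HGV against LGV, and was lower with VPA at -1.29 ± 0.11 in HG and -1.14 ± 0.16 in LG medium. In these 2 genes of chromosome 19, glucose moved both up, and VPA moved CYP4F3 down in either medium while CYP4F2 rose in HGV.

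CYP4F11 was lower with VPA, at -0.56 ± 0.13 in HGV against HG and -0.57 ± 0.21 in LGV against LG (FDR 0.0467, and up to 0.190 without LG replicate 1 or 3 or LGV replicate 2 or 3). CYP4F12 gave -0.39 ± 0.14 in LGV against LG (FDR 0.0384, up to 0.170 without LG replicate 1 or LGV replicate 1, 2 or 3) and -0.07 ± 0.12 in HGV against HG (FDR 0.681). Its interaction was not called (FDR 0.528). CYP4F22, an enzyme of skin ceramide synthesis, is named after its values were seen: 0 reads in the 6 untreated libraries, 40 reads in LGV and 82 in HGV. Against a floor of 3 reads over the group, it was at least 25.3-fold higher in HGV than in HG and at least 13.9-fold higher in LGV than in LG. With too few reads, CYP4F22 was not tested in LGV against LG.

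Retinoid and oxysterol enzymes rose with VPA. CYP26B1 (chr2:72356367-72374991, minus strand), which clears retinoic acid, had 0.748, 0.823 and 0.460 CPM in LG, 0.0634, 0.568 and 0.196 in HG, 9.48, 10.7 and 13.1 in LGV and 12.97, 10.1 and 9.97 in HGV. VPA brought both media to the same range, with log2 fold changes of 5.29 ± 0.37 in HGV against HG (FDR 3.01e-07) and 4.05 ± 0.25 in LGV against LG (FDR 3.92e-08). The HG libraries held only 2, 19 and 7 reads of CYP26B1, and the value in HGV against HG ran from 4.83 without HG replicate 1 to 6.33 without HG replicate 2. CYP39A1, an oxysterol hydroxylase of the alternative bile acid pathway, had 0.748, 0.848 and 0.460 CPM in LG, 0.317, 0.269 and 0.168 in HG, 4.14, 4.51 and 4.03 in LGV and 2.05, 1.69 and 2.12 in HGV. It rose by 2.95 ± 0.31 in HGV against HG and 2.64 ± 0.27 in LGV against LG, and was lower in high glucose at -1.42 ± 0.40 without VPA (FDR 0.0146, up to 0.0969 without HG replicate 3 or LG replicate 1 or 2) and -1.13 ± 0.21 with it.

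The other bile acid P450s fell with VPA. CYP27A1 had 232, 219 and 205 CPM in LG, 174, 192 and 198 in HG, 94.1, 127 and 124 in LGV and 70.6, 90.4 and 82.1 in HGV, with log2 fold changes of -1.22 ± 0.11 in HGV against HG and -0.91 ± 0.13 in LGV against LG. CYP8B1, the hydroxylase that sets the share of cholic acid, fell from 4.94, 2.74 and 3.91 CPM in LG to 0.660, 0.844 and 0.934 in LGV, and from 3.77, 3.59 and 4.62 in HG to 1.20, 0.666 and 1.35 in HGV. That was -2.22 ± 0.29 and -1.92 ± 0.26. CYP7A1, the rate-limiting enzyme of bile acid synthesis, gave -1.71 ± 0.40 in HGV against HG and -1.65 ± 0.28 in LGV against LG. None of the 3 was called in HG against LG, while CYP27A1 was lower in HGV than in LGV at -0.53 ± 0.14.

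Vitamin D and steroid P450s moved unevenly. CYP27B1, which activates vitamin D, fell with VPA at -0.86 ± 0.20 in HG medium and -1.07 ± 0.22 in LG medium, and gave -0.77 ± 0.21 in HG against LG (FDR 0.0128, up to 0.0831 without HG replicate 2 or 3 or LG replicate 1), while CYP24A1, which degrades it, was not called. CYP19A1 (aromatase) was higher in high glucose by 0.61 ± 0.19 without VPA (FDR 0.0224, up to 0.129 without HG replicate 2 or 3 or LG replicate 1 or 2) and 0.68 ± 0.18 with it. CYP21A2, an adrenal steroid hydroxylase, fell with VPA at -0.69 ± 0.20 in HG medium (FDR 0.0139, and 0.0607 without HGV replicate 3) and -1.26 ± 0.25 in LG medium. CYP20A1 had 28.4, 24.3 and 28.6 CPM in LG, 28.0, 27.6 and 24.3 in HG, 12.1, 8.41 and 7.87 in LGV and 13.6, 14.9 and 13.8 in HGV, with log2 fold changes of -0.92 ± 0.12 and -1.51 ± 0.17 in HG and LG medium.

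The UGT2 genes split by member. UGT2B4 (chr4:70345883-70391732, minus strand), which acts on bile acids, had 46.7, 69.8 and 34.8 CPM in LG, 14.3, 13.996 and 16.3 in HG, 23.9, 36.99 and 31.7 in LGV and 16.3, 14.8 and 17.8 in HGV. No high glucose library reached the low glucose ones, with log2 fold changes of -1.74 ± 0.20 without VPA (FDR 6.13e-06) and -0.94 ± 0.15 with it. VPA gave -0.70 ± 0.21 in LG medium (FDR 0.0163, up to 0.0735 without LG replicate 2 or LGV replicate 1), where the groups overlapped, and 0.13 ± 0.13 in HG medium (FDR 0.437). The interaction was not called for UGT2B4 (FDR 0.228). UGT2B7, which conjugates morphine and VPA, had 26.4, 27.1 and 28.0 CPM in LG, 20.5, 17.6 and 20.2 in HG, 16.8, 15.7 and 15.2 in LGV and 9.17, 7.16 and 11.8 in HGV. It fell with VPA at -1.06 ± 0.17 in HG medium and -0.76 ± 0.13 in LG medium, and gave -0.46 ± 0.14 in HG against LG (FDR 0.0232, up to 0.118 without HG replicate 2 or 3 or LG replicate 1). In HGV against LGV it gave -0.78 ± 0.17 (FDR 0.00139), a call that held without any 1 library (highest FDR 0.00970).

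In the close pair UGT2B10 and UGT2B11, both were higher in HGV than in LGV, by 0.90 ± 0.15 (FDR 0.000133) and 1.35 ± 0.26 (FDR 0.000536), and neither was called in HG against LG, at 0.25 ± 0.16 (FDR 0.267) and -0.03 ± 0.32 (FDR 0.954). Their VPA calls fell in different media. The interaction of glucose and VPA was called for neither, at an FDR of 0.276 for UGT2B10 and 0.167 for UGT2B11. The difference between the 2 genes was not tested. UGT2B10, which conjugates nicotine, had 56.5, 54.3 and 82.0 CPM in LG, 88.4, 59.3 and 79.4 in HG, 44.2, 37.2 and 36.5 in LGV and 67.0, 62.8 and 93.8 in HGV. It fell at -0.70 ± 0.16 in LGV against LG and gave -0.02 ± 0.17 in HGV against HG (FDR 0.923). UGT2B11 had 0.598, 1.05 and 1.05 CPM in LG, 0.983, 0.598 and 1.06 in HG, 1.23, 0.942 and 1.07 in LGV and 2.64, 2.26 and 3.50 in HGV. Only its HGV libraries stood apart, by 1.66 ± 0.27 in HGV against HG (FDR 0.000291) against 0.25 ± 0.31 in LGV against LG (FDR 0.550). UGT2A3 fell with VPA at -0.89 ± 0.11 and -0.53 ± 0.14 in HG and LG medium, and was higher in HG than in LG by 0.37 ± 0.13 (FDR 0.0359, up to 0.119 without HG replicate 1 or 3 or LG replicate 1).

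Of the sulfotransferases, SULT1E1 (chr4:70706930-70725863, minus strand), which inactivates oestrogens, was higher in high glucose and lower with VPA. It had 0.897, 1.27 and 1.20 CPM in LG, 4.28, 2.57 and 3.08 in HG, 0.630, 0.520 and 0.507 in LGV and 1.502, 1.498 and 1.74 in HGV, and all 4 comparisons were without overlap. Glucose gave 1.56 ± 0.26 without VPA and 1.49 ± 0.30 with it, and VPA gave -1.07 ± 0.23 in HG medium and -1.02 ± 0.31 in LG medium (FDR 0.0164, up to 0.0803 without LGV replicate 2 or 3). SULT1C4, a form prominent in fetal tissue, was higher under both, by 1.18 ± 0.20 in HG against LG, 1.13 ± 0.18 in HGV against LGV, 0.55 ± 0.16 in HGV against HG and 0.57 ± 0.21 in LGV against LG. Its VPA call in HG medium was lost without HG replicate 3 (FDR 0.0516), and that in LG medium without LG replicate 1 or 2 or LGV replicate 1, 2 or 3 (highest FDR 0.128).

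SULT1A1, the main phenol sulfotransferase of liver, rose in high glucose by 0.50 ± 0.14 and 0.46 ± 0.13 without and with VPA, and was lower with VPA at -0.38 ± 0.12 and -0.38 ± 0.13 in HG and LG medium. All 4 calls depended on single libraries. The glucose calls were lost without HG replicate 2 (FDR 0.0629) and without LGV replicate 3 (FDR 0.0646). The VPA calls were lost without HG replicate 2 or 3 or HGV replicate 1 or 3 in HG medium (highest FDR 0.0852) and without LG replicate 1 or 3 or LGV replicate 1, 2 or 3 in LG medium (highest FDR 0.182). SULT1A2 was lower with VPA, at -0.63 ± 0.12 and -0.51 ± 0.15 in HG and LG medium (FDR in LG medium up to 0.0564 without LG replicate 1 or LGV replicate 3). SULT2A1 was lower in HG than in LG at -0.39 ± 0.11 (FDR 0.0168, up to 0.106 without HG replicate 2 or 3 or LG replicate 1). That call was also lost with library size in place of TMM and with the replicate block. SULT2B1, a cholesterol sulfotransferase named after its values were seen, had 109 reads in HGV and 3 in HG, a ratio of 33.7 (95% exact interval 11.2 to 166, counting error only). Its log2 fold change in HGV against HG was 4.88, and 5.76 without HG replicate 1. In LGV against LG it was 3.16, and ran from 2.54 without LG replicate 3 to 3.93 without LG replicate 1.

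**Figure D4:**
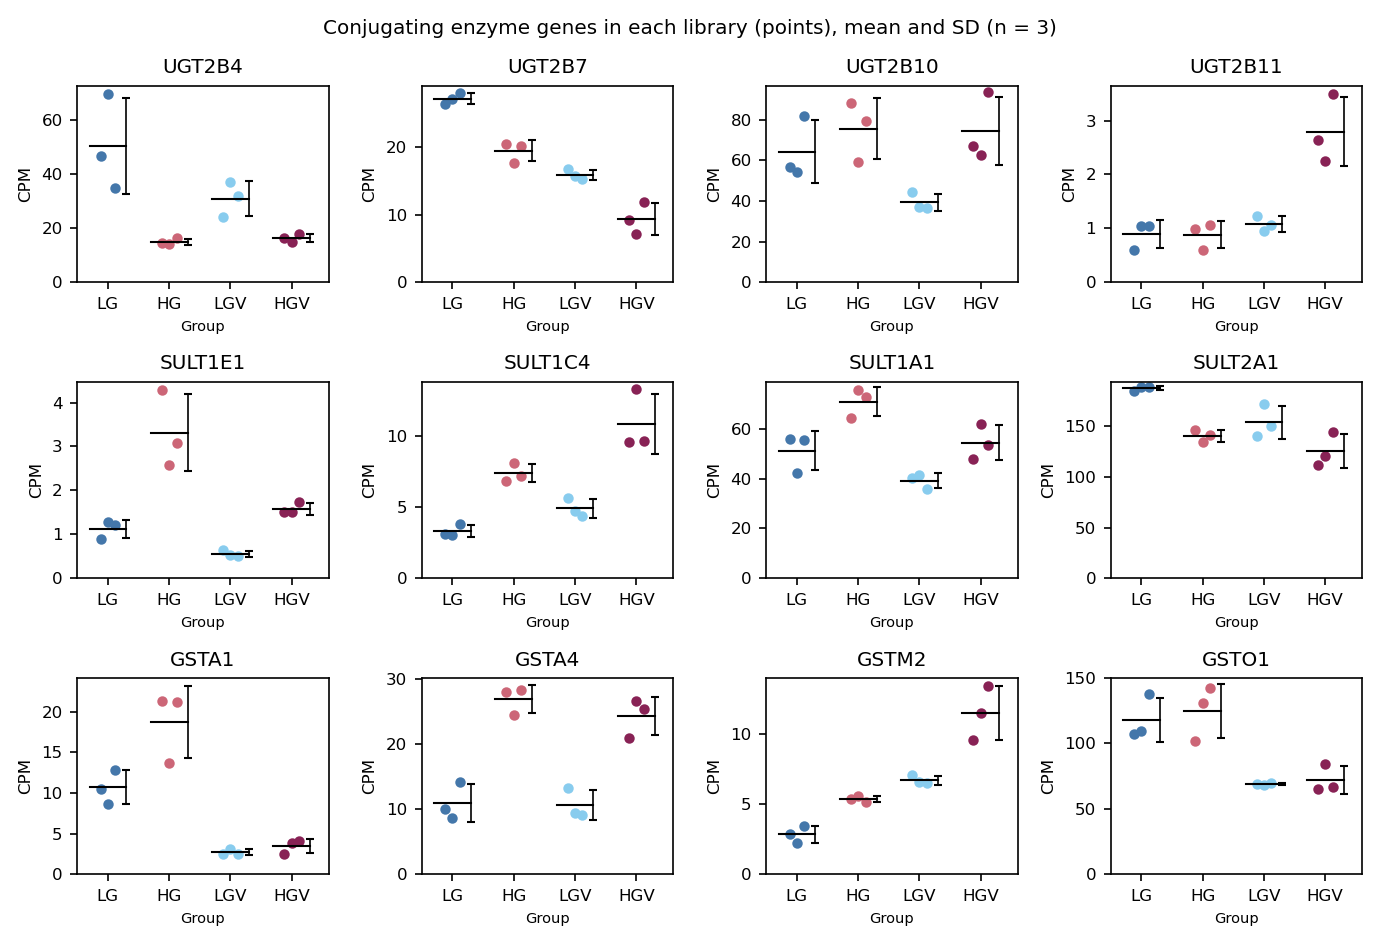
CPM of 12 UGT, SULT and GST genes in each library (points), with mean (line) and SD (bar, n = 3), each axis starting at 0. GSTA1 lies at 2.43 to 4.03 CPM in the 6 VPA libraries and at 8.68 to 21.3 CPM in the 6 untreated ones.

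The alpha-class transferases were higher in high glucose without VPA, and GSTA1 fell with VPA. GSTA1 (chr6:52656169-52668658, minus strand), abundant in normal liver, had 10.5, 8.68 and 12.9 CPM in LG, 21.3, 13.6 and 21.2 in HG, 2.52, 3.09 and 2.43 in LGV and 2.51, 3.83 and 4.03 in HGV. It rose by 0.83 ± 0.19 in HG against LG, then gave -2.43 ± 0.22 in HGV against HG and -1.99 ± 0.21 in LGV against LG. In HGV against LGV, GSTA1 (0.36 ± 0.23, FDR 0.224) and GSTA2 (0.23 ± 0.38, FDR 0.650) were not called. GSTA2, with a nearly identical promoter and lower level, gave 0.86 ± 0.31 in HG against LG (FDR 0.0494, up to 0.294 without HG replicate 1 or 3 or LG replicate 1 or 2), -1.13 ± 0.34 in HGV against HG (FDR 0.0160, up to 0.0982 without HG replicate 3 or HGV replicate 1) and -0.52 ± 0.34 in LGV against LG (FDR 0.242). GSTA4, which detoxifies lipid peroxidation products, had 9.95, 8.61 and 14.2 CPM in LG, 28.0, 24.4 and 28.4 in HG, 13.3, 9.35 and 9.15 in LGV and 21.003, 26.7 and 25.4 in HGV. It rose by 1.32 ± 0.18 in HG against LG and 1.18 ± 0.16 in HGV against LGV, and VPA gave -0.15 ± 0.12 and -0.04 ± 0.21 (FDR 0.362 and 0.905).

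The mu-class genes rose under one or both treatments. GSTM2 had 2.84, 2.20 and 3.47 CPM in LG, 5.36, 5.56 and 5.12 in HG, 7.08, 6.56 and 6.51 in LGV and 9.63, 11.5 and 13.5 in HGV. Each step was without overlap, at 0.94 ± 0.22 in HG against LG, 0.76 ± 0.16 in HGV against LGV, 1.11 ± 0.16 in HGV against HG and 1.25 ± 0.21 in LGV against LG. GSTM4 was higher in high glucose by 0.59 ± 0.18 (FDR 0.0214, up to 0.0878 without HG replicate 2 or 3 or LG replicate 1 or 2) and 0.64 ± 0.14 without and with VPA, and GSTM3 rose with VPA by 0.76 ± 0.13 and 0.42 ± 0.14 in HG and LG medium (FDR 0.0257 in LG medium, up to 0.102 without LG replicate 1 or 2 or LGV replicate 1 or 2). GSTO1, GSTK1, the mitochondrial form, and GSTZ1, an enzyme of tyrosine breakdown, fell with VPA in both media, at -0.79 ± 0.14 and -0.77 ± 0.13, -0.63 ± 0.11 and -0.52 ± 0.12, and -0.58 ± 0.15 and -0.98 ± 0.20.

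**Figure D5:**
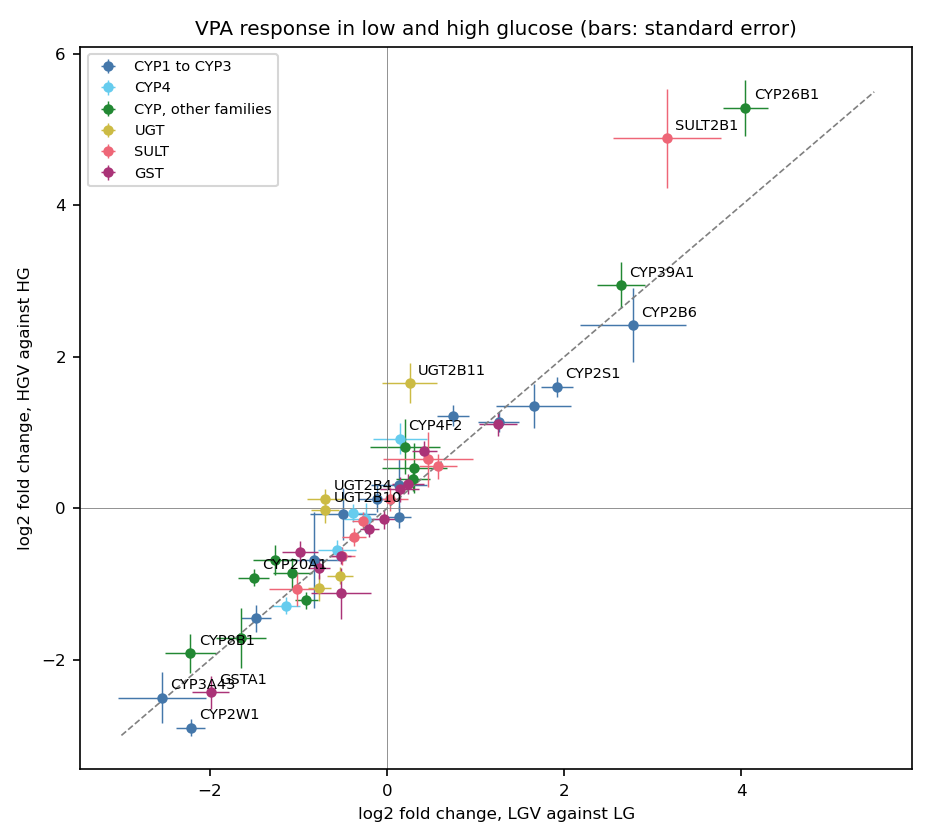
Log2 fold change with VPA in HG medium (y axis) against LG medium (x axis) for the 53 genes tested in both, with SE bars and a dashed line of equal change. CYP26B1 and SULT2B1 lie above 3 in both media (SULT2B1 in LG medium at 2.54 without LG replicate 3), CYP2W1 below -2 in both, and UGT2B11 and UGT2B4 lie above the line.

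Whether the VPA response differed between media was tested as the interaction over all 12 libraries. It called 0.0427% of all genes and 0 of these 54. DESeq2's Wald test also called 0 of them. At an unadjusted p of 0.05 or less, where 11.3% of all genes lay, there were 7 of the 54: UGT2B11 (log2 interaction 1.42 ± 0.41, FDR 0.167), CYP2W1 (-0.67 ± 0.21, FDR 0.187), UGT2B4 (0.84 ± 0.28, FDR 0.228), CYP20A1 (0.60 ± 0.22, FDR 0.272), UGT2B10 (0.69 ± 0.25, FDR 0.276), CYP26B1 (1.26 ± 0.51, FDR 0.333) and CYP4F2 (FDR 0.397). None passed the correction, and this does not show that the responses were alike.

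Partner genes were read from 6 lists of sensors, electron donors, cofactor supply, other enzymes and transporters. The shares of all genes called, to set beside the counts of each list, were 25.8% higher and 20.2% lower in HGV against HG, 21.7% and 19.9% in LGV against LG, and 12.0% and 12.7% in HG against LG. Of 21 sensors tested, 4 were higher and 7 lower with VPA in each medium. VDR, the vitamin D receptor, rose by 4.05 ± 0.27 in HGV against HG and 3.37 ± 0.41 in LGV against LG, from 0.19 to 0.31 CPM in HG to 3.757 to 4.999 in HGV. NR1H4, the bile acid sensor, fell at -1.79 ± 0.13 and -1.32 ± 0.11, and AHRR, the repressor of AHR, rose by 0.97 ± 0.24 and 1.29 ± 0.31 and was higher in HG than in LG by 0.91 ± 0.31 (FDR 0.0352). Of 20 sensors tested in HG against LG, 1 was higher and 6 lower, among them NR5A2 (-0.73 ± 0.20) and PPARA (-0.66 ± 0.13).

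Of the P450 electron donors, 4 of 8 were higher and none lower in HGV against HG, and 2 of 8 and none in LGV against LG. CYB5B rose by 0.46 ± 0.12 and 0.62 ± 0.12 and PGRMC1 by 0.43 ± 0.11 and 0.62 ± 0.11, while FDXR rose by 0.57 ± 0.12 in HGV against HG. Of 16 cofactor genes, 4 were higher and 3 lower in HG against LG. UGDH, which makes UDP-glucuronic acid, gave -0.88 ± 0.13, GCLC, the first enzyme of glutathione synthesis, -0.72 ± 0.12, and CTH, which supplies cysteine, 0.74 ± 0.14. With VPA 2 rose and 6 fell in each medium. PAPSS2, an enzyme that makes the sulfate donor, rose by 1.84 ± 0.25 and 1.58 ± 0.27 in HG and LG medium. Its level was low, at 0.479 to 0.697 CPM in HG and 0.599 to 0.673 in LG. PAPSS1, of the same list, had 131 to 133 CPM in HG and 112 to 137 in HGV, which overlapped. It had 90.98 to 135 CPM in LG and 96.9 to 116 in LGV, which also overlapped. Supply of the sulfate donor itself was not tested. The UDP-glucuronic acid transporter SLC35D1 gave -1.13 ± 0.11 and -0.98 ± 0.12 in HG and LG medium.

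Of 30 other first-phase enzymes tested, 5 were higher and 13 lower in HGV against HG, and 2 and 17 in LGV against LG. The largest were the alcohol dehydrogenases ADH1A (-2.73 ± 0.40 and -1.94 ± 0.62) and ADH4 (-1.65 ± 0.14 and -1.74 ± 0.15), and the paraoxonase PON1 (2.68 ± 0.30 and 1.99 ± 0.38). In HG against LG, 8 were higher and 3 lower, led by AKR1B10 (-1.55 ± 0.15), ADH1A (1.42 ± 0.33) and the carboxylesterase CES3 (1.28 ± 0.21). Of 10 other conjugating enzymes, 3 rose and 3 fell in HGV against HG and 2 and 2 in LGV against LG. TPMT, the thiopurine methyltransferase, rose by 1.13 ± 0.12 and 1.05 ± 0.12, and MGST3 by 0.98 ± 0.14 and 0.97 ± 0.13. In HG against LG 0 were higher and 1 was lower, MGST2 at -0.36 ± 0.12. Of 19 transporters, 3 rose and 13 fell in HGV against HG and 3 and 12 in LGV against LG. SLC22A3, an organic cation transporter, gave -1.70 ± 0.13 and -1.30 ± 0.13, ABCC6 -1.29 ± 0.12 and -1.38 ± 0.16, and ABCG8, of the sterol exporter, -1.27 ± 0.13 and -1.41 ± 0.23. In HG against LG, 4 were higher and 7 lower, including SLC22A7 (2.50 ± 0.34, with an overlap on the other strand), SLCO2B1 (0.87 ± 0.21) and SLC51B (-0.84 ± 0.16).

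CpG pairs in the promoter windows were counted as a description, with no test. The median was 10.5 CpG in 14 windows of genes higher in HGV against HG, 4 in 16 windows of genes lower and 3 in 14 windows of genes not called, and in LGV against LG it was 11, 4 and 2 in 11, 16 and 16 windows. The ranges overlapped, from 0 to 25 among the higher and from 0 to 28 among the lower.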

How the data were processed

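HepG2 libraries were made with a poly(A) and directional kit. According to the paper, the authors quality-trimmed 50 nt single-end reads and aligned them to GRCh37 with STAR, then counted them with featureCounts. The submitters' processing notes also name bcl2fastq 2.17.1.14. The deposited values are raw counts per Ensembl gene, with genes averaging under 10 reads already left out. Counts were tested here with edgeR 4.0.16 (R 4.3.3): TMM, quasi-likelihood F test, a minimum mean count of 10 in the libraries of each comparison, FDR of 0.05 or less over all tested genes, and the interaction over 12 libraries. SE is the absolute log2 fold change over the square root of F. CPM used TMM factors of the 12 libraries, and levels per length used the MANE Select transcript (53 of 54 genes, and the longest coding transcript for GSTT1). Alternatives were DESeq2 1.42.0, its size factors, library size, other filters, a replicate block, one fit of all libraries, an FDR of 0.01 and leaving out each library. Positions came from GENCODE on GRCh37, promoters from RefSeq, and figures from matplotlib 3.10.9. In each comparison the members called with at least 1 CPM, up to 15 a direction, were named, with the leading 2 of each class. Other members are named because every member is accounted for. The genes, lists and motifs were chosen with earlier results of these data known. Some genes and 1 motif that meet these rules are not reported here.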

Additional observations from a re-analysis of the deposited data

How the results depend on the processing

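The number of these genes called stayed within 1.5 times the value given, under every alternative run for all comparisons other than HG against LG. There it was 23, and 12 at an FDR of 0.01. Leaving out 1 library gave 13 (without LG replicate 1) to 24, with 14 without HG replicate 3. No named called gene changed direction in any alternative. Over all members and settings, the FDR of 0.01 included, a call was lost in 144 values. These were 61 in HG against LG, 13 in HGV against HG, 42 in LGV against LG and 28 in HGV against LGV. A call was gained in 42 values (6, 15, 2 and 19 in the same order). The 3926 values compared include genes not called, which had no call to lose. Whichever library was left out, 9 of 16 higher and 3 of 7 lower calls were kept in HG against LG. The counts kept were 13 of 14 and 18 of 21 in HGV against HG, and 9 of 11 and 17 of 23 in LGV against LG. In HGV against LGV they were 11 of 17 and 6 of 7. Some calls lost without a library were also lost under other settings. In HG against LG, SULT2A1 and UGT2B7 lost theirs with library size alone or the replicate block. CYP2E1 and GSTA2 did so with DESeq2's Wald test or the block, and CYP2U1 and UGT2A3 with the block. Library size alone also lost the calls of SULT1A1 in HGV against HG and of CYP4F11 and CYP4F12 in LGV against LG. The replicate block gave 18, 39, 34, 29 and 0 calls in place of 23, 35, 34, 24 and 0. Whether replicate numbers pair the libraries is not stated, and correlations between so few libraries cannot decide it. The correlations of same-numbered libraries were not all above 0.1 in any comparison. For HG and LG they averaged -0.177 against 0.0938 for different numbers, for HG and HGV 0.120 against -0.0785, for LG and LGV 0.0711 against -0.0368, and for LGV and HGV 0.123 against -0.0598. Over all genes the interaction called 7, and between 1 and 217 under the alternatives, with 0 of these genes each time. Genes under about 1 CPM rest on few reads, and shared sequence may limit the SULT1A, GSTM, CYP3A7 and CYP21A2 values.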
